A study of Mus musculus with 6 samples.

Results

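The proteasome is the barrel-shaped protease that degrades proteins tagged with ubiquitin. Described here are the transcripts of its subunits, activators and assembly chaperones in cells sorted from the mouse renal medulla after ischemia or sham surgery. The members are all genes of the deposited table whose symbol begins with Psma, Psmb, Psmc, Psmd, Psme, Psmf or Psmg and a digit, and whose read count averaged at least 10 over the 6 libraries. This kept 48 of the 55 rows that carry such a symbol, out of 37583 gene identifiers in all. The members were therefore chosen by their level over all libraries, and not by a difference between groups. The member nearest to the limit was Psma8, with a mean of 12.3 reads, and the highest of the rows left out were 3 pseudogenes with a mean of 0.667 reads. The 48 members comprised 14 subunits of the 20S core, 17 subunits of the regulatory cap, 2 subunits of the immunoproteasome, 5 activators and inhibitors, 7 assembly chaperones and 3 other genes.

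Cells were collected 2 h after ischemia-reperfusion injury of the kidney (IRI), an interrupted and then returned blood supply, or 2 h after a sham operation. Each group had 3 samples, and each sample pooled 4 kidneys of 2 mice aged 12 weeks. Mice of both groups carried an EGFP transgene named for B1, a subunit of the vacuolar proton pump, which marks intercalated cells, the acid- and base-secreting cells of the collecting duct, and the EGFP-positive cells were sorted in 2 rounds. The genotype entry of the labels also names CX3CR1 and the tissue entry reads epididymis, whereas the design text places the cells in the renal medulla. The libraries held 22478011 to 24245330 reads counted in genes after IRI and 17421669 to 23061108 in sham. Of 8 markers of intercalated cells, all 8 were detected, with summed levels of 10476 to 12392 RPKM after IRI and 9890.0 to 12739 RPKM in sham. RPKM, the deposited unit, is reads scaled to gene length and to an effective library size, so it can be compared between genes. That size was 0.917 to 0.979 of the reads counted in genes after IRI and 1.04 to 1.09 in sham. Groups that do not overlap in RPKM can therefore overlap when reads are scaled by library size alone. Of the 8 intercalated cell markers, 0 were called higher and 1 lower, where 24.2% of all genes were called higher and 21.2% lower. The 1 was Atp6v1b1, the gene of B1, at 568, 731 and 633 RPKM in the IRI libraries and 784, 912 and 874 RPKM in the sham libraries. Its log2 value was -0.37 ± 0.13 (adjusted p = 0.0427, and up to 0.119 with a library left out). Aqp2, Aqp3 and Avpr2 of principal cells summed to 3305 to 6885 RPKM after IRI and 7091 to 7600.2 RPKM in sham, with Aqp2 at 6414, 2922 and 4478 RPKM in the IRI libraries and 6974, 6679.6 and 6479.9 RPKM in the sham libraries. Aqp3 was called lower (log2 -0.40 ± 0.12, adjusted p = 0.0273). Every IRI sum of these principal cell markers lay below every sham sum, and the part of this in the results was not tested. In bulk samples, a different number of cells of a type and a different amount of RNA per cell cannot be told apart. Markers of the thick ascending limb overlapped between groups (215 to 379.8 RPKM after IRI and 247 to 425 RPKM in sham), and those of the proximal tubule summed to at most 0.561 RPKM after IRI and 0.922 RPKM in sham.

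The core of the proteasome is a stack of rings built from alpha subunits (Psma genes), which form the gate, and beta subunits (Psmb genes), 3 of which cut proteins. The regulatory cap (Psmc and Psmd genes) sits on the core, and its base unfolds the substrate with ATPases while its lid removes ubiquitin chains. In immune cells, and in other cells under interferon, the cutting subunits Psmb6, Psmb7 and Psmb5 can be replaced by the immunoproteasome subunits Psmb9, Psmb10 and Psmb8, which favour peptides for presentation on class I molecules. Other activators (Psme genes) can take the place of the cap, and dedicated chaperones (Psmg1 to Psmg4) build the core. Cells use the proteasome to clear proteins that stress has damaged.

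Core subunits were abundant in both groups, and their levels differed widely from one another. The 14 core genes averaged 22.4 to 277 RPKM after IRI and 18.2 to 281 RPKM in sham, with a median of 140.2 RPKM after IRI and 120.4 RPKM in sham. Within one library, the highest core gene stood 12.3 to 13.3 times above the lowest after IRI and 14.8 to 15.95 times in sham, although the core holds its subunits in equal numbers. RPKM depends on the gene length listed by the authors, 918 bases for Psmb5 and 3888 bases for Psma3, and reads that aligned to several copies were not counted, and the part of either in this spread was not tested. Psmb1, Psmb2, Psma6 and Psmb6 led the core in both groups, at 277 ± 11.3, 277 ± 27.7, 269.9 ± 26.8 and 265 ± 16.5 RPKM after IRI and 281 ± 33.1, 249.6 ± 33.1, 243 ± 29.4 and 244 ± 33.2 RPKM in sham (SD, n = 3). The values of these 4 overlapped within each group. At the other end were Psmb3, Psma5 and Psma3, at 32.2 ± 1.898, 23.8 ± 0.774 and 22.4 ± 2.15 RPKM after IRI and 32.3 ± 3.196, 25.5 ± 2.62 and 18.2 ± 1.55 RPKM in sham.

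The cap genes spanned a similar range, 33.9 to 352 RPKM after IRI and 18.5 to 213 RPKM in sham. The highest was Psmd8 and the lowest in sham was Psmd11, both of the lid. Psmc5, the most abundant of the ATPases, had 208 ± 13.2 RPKM after IRI and 185 ± 11.8 RPKM in sham. Of the activators, Psme1 led at 153 ± 10.4 RPKM after IRI and 136 ± 11.1 RPKM in sham, and Psme4 was lowest. Immunoproteasome genes lay under most core genes: Psmb10 averaged 52.7 ± 11.6 RPKM after IRI and 33.6 ± 0.7798 RPKM in sham, and Psmb8 averaged 11.3 ± 1.52 RPKM after IRI and 5.19 ± 0.6204 RPKM in sham.

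**Figure D1:**
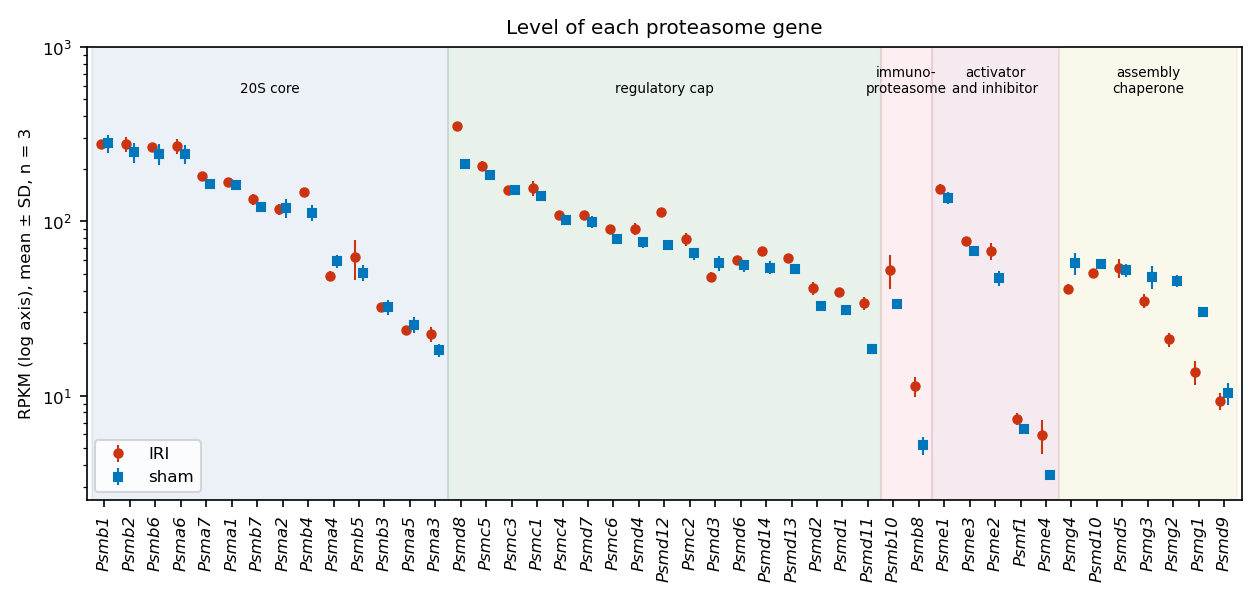
Mean deposited RPKM (log axis) with SD of 3 IRI libraries (circles) and 3 sham libraries (squares) for 45 proteasome genes, ordered by their level in sham within each class. Most core and cap genes lie at nearly the same height in both groups, whereas Psmd8, Psmd12, Psmd11, Psmb10, Psmb8 and Psme4 stand higher after IRI and Psmg2 and Psmg1 lower.

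The comparison of IRI with sham asked which proteasome transcripts differ 2 h after the injury. Counts went through the quasi-likelihood test of edgeR, and genes with a Benjamini-Hochberg adjusted p under 0.05, over all 13881 genes tested, are named as called. All 48 members passed the filter on low counts. Of these, 15 were higher after IRI and 5 were lower, together 41.7% of the members, where 45.5% of all genes tested were called. The share called higher was 31.2% of the members and 24.2% of all genes, and the share called lower was 10.4% of the members and 21.2% of all genes. Taken as a whole, the family was thus called about as often as other genes. In 21 members all IRI values of RPKM lay above all sham values (27.6% of all genes), and in 8 they lay below (29.1% of all genes), where in both directions together 56.8% of all genes did not overlap. Differences were small: the median size of a log2 fold change, regardless of sign, was 0.24 over the members and 0.48 over all genes tested. Only Psmb8 was called with an at least 2-fold increase (1 of 48, against 11.5% of all genes), and Psmg1, Psmg2 and Psmc3ip with an at least 2-fold decrease (3 of 48, against 8.5% of all genes). The 2 sets are unlike in level. Members had a median of 61.7 RPKM after IRI and 57.2 RPKM in sham, against 4.08 and 3.99 RPKM over all genes tested. Fold changes of genes with few reads scatter more, and the part of level in these contrasts was not tested.

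By class, called higher were 2 of 14 core genes, 8 of 17 cap genes, both immunoproteasome genes and 2 of 5 activators and inhibitors, while 4 of 7 assembly chaperones were called lower. Over all genes tested, 24.2% were called higher and 21.2% lower. The median log2 fold change was 0.17 in the core, 0.24 in the cap, 0.24 in activators and inhibitors and -0.41 in assembly chaperones, where it was 0.00 over all genes tested. Small changes depend on how libraries are scaled. TMM scaling (trimmed mean of log ratios) was used here, and upper-quartile scaling and library size alone moved the log2 fold change of the median gene by -0.12 and -0.20. With library size alone the core median was -0.03 and the cap median 0.05, and 3 cap genes and 0 core genes were higher. Of all genes, 17.3% were higher and 31.2% lower with library size alone, and 19.8% and 27.3% with upper-quartile scaling, so counts at one scaling are read against the share at that scaling. Under all 15 fits run (the reported one and 14 alternatives, which changed scaling, filter, test, replicate block and the libraries left in), 9 members kept their call: Psmd11, Psmd8, Psmd12, Psmb8, Psmb10, Psme4 and Psme2 were higher and Psmg1 and Psmg2 lower.

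**Figure D2:**
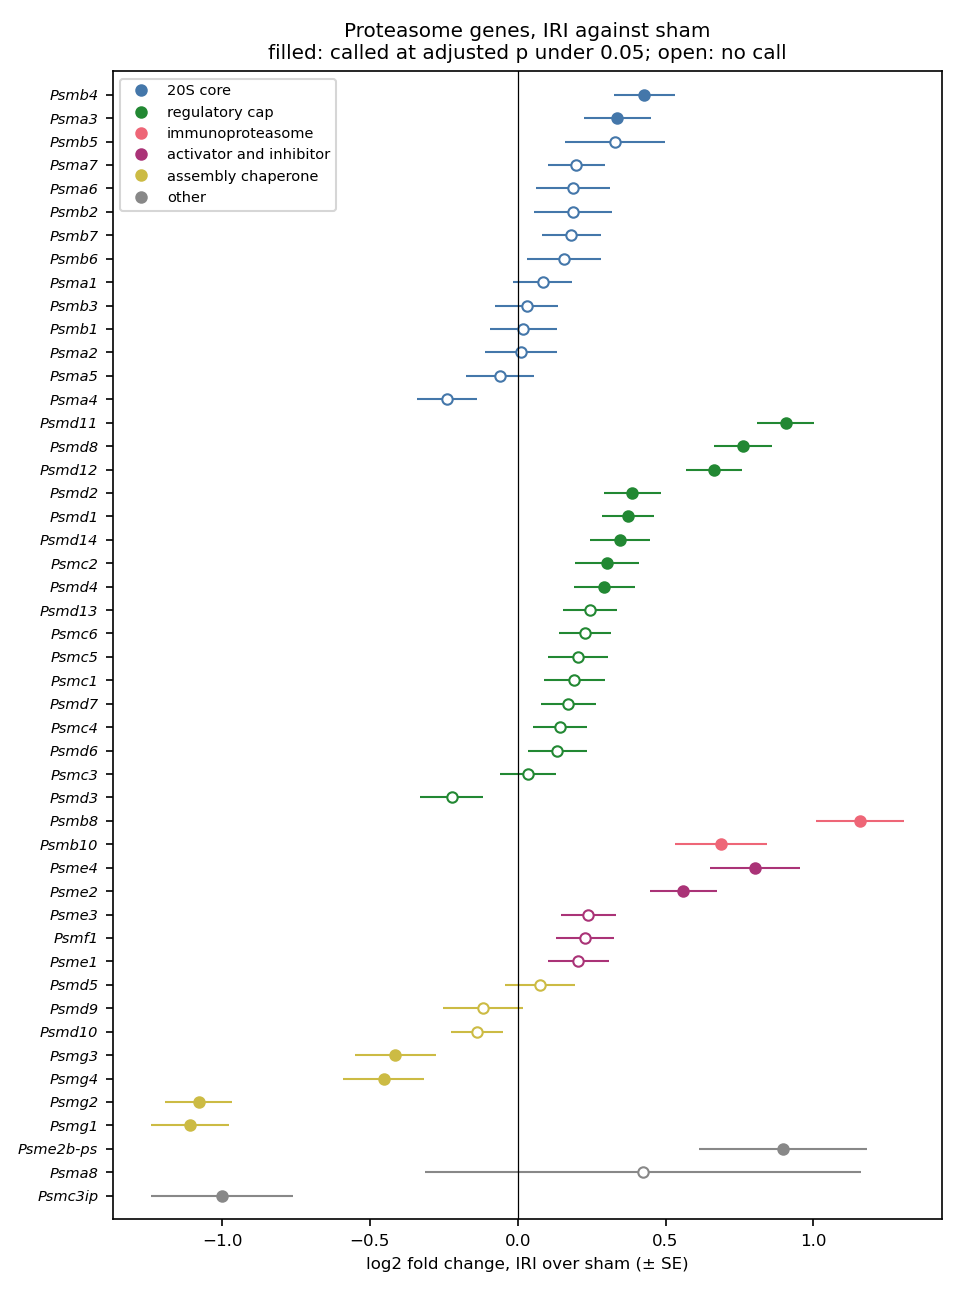
Fitted log2 fold change of IRI over sham with its SE for each of the 48 members, grouped by class, with filled points for genes called at an adjusted p under 0.05 and open points for the others. Psmd11, Psmd8 and Psmd12 stand apart from the other cap genes, and Psmg1 and Psmg2 lie below -1.

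Promoters of 5 of these genes are printed because the 3 lid genes that changed most moved together, and Psmb8 and Psmg1 changed most upward and downward. The RefSeq promoter table (build GRCm38.p6) held 39 of the 48 members, matched by symbol. The 250 bases before each start site were searched on both strands for TGACNNNGC (antioxidant response element, bound by NFE2L1 and NFE2L2), the interferon-stimulated response element (GAAA, any 2 bases, GAAA), TTCNNNGAA (the gamma-interferon activated site, its own reverse complement) and CCAAT (bound by NF-Y), and capitals mark matches. TGACNNNGC was in 5 of 39 member promoters, 12.8%, and in 10.2% of all 32851 promoter windows. CCAAT was in 13 of them and in 33.8% of all windows, TTCNNNGAA in 2 and 7.02%, and the interferon-stimulated response element in 3 and 2.98%. Psmd11 (chr11:80428365-80428614, plus strand) and Psmd8 (chr7:29180674-29180923, minus strand) held none of the 4 motifs in these windows. Psmd12 (chr11:107479278-107479527, plus strand) held TGACNNNGC on the other strand at bases 4 to 12, counted from the 5′ end. Psmb8 (chr17:34197945-34198194, plus strand) held TTCNNNGAA at bases 154 to 162, and Psmg1 (chr16:95990961-95991210, minus strand) at bases 8 to 16. A match is a run of letters and was not tested for binding.
Psmd11: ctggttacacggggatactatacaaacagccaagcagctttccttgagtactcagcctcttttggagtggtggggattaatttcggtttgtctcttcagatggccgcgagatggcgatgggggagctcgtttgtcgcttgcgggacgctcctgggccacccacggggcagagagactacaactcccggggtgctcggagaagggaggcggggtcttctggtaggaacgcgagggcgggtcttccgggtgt
Psmd8: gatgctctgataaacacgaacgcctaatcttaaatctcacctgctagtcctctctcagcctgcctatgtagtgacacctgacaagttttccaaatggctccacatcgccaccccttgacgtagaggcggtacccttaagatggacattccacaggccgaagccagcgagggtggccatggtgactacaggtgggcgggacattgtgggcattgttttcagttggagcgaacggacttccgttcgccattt
Psmd12: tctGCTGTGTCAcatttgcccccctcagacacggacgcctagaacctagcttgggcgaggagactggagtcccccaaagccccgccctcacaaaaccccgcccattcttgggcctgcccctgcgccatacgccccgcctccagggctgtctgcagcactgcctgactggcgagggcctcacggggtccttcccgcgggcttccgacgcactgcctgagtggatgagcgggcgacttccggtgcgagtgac
Psmb8: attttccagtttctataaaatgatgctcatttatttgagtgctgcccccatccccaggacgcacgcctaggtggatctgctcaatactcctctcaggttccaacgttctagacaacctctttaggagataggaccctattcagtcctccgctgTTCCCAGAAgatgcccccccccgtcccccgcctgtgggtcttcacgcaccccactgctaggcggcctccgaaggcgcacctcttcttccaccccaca
Psmg1: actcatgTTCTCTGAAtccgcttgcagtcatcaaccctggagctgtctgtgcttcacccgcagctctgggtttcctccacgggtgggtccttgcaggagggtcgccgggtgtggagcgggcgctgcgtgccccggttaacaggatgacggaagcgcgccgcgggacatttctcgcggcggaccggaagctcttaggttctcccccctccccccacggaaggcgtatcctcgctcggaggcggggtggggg

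In the regulatory cap, 3 lid subunits rose the most. Psmd11 (Rpn6), which clamps the lid to the core, had 36.1, 34.97 and 30.5 RPKM in the IRI libraries, against 17.9, 19.00 and 18.6 RPKM in the sham libraries, and every IRI library was above every sham library. Its fitted log2 fold change was 0.91 ± 0.10 (SE), a 1.87-fold rise with an adjusted p of 0.00014. Psmd8 (Rpn12), the last subunit to join the lid in yeast, had 339, 359 and 356 RPKM in the IRI libraries, against 201, 226 and 212 RPKM in the sham libraries. The groups lay far apart, and the log2 fold change was 0.76 ± 0.10 (adjusted p = 0.000374). Psmd12 (Rpn5), a scaffold subunit of the lid, had 107, 121 and 109.9 RPKM in the IRI libraries, against 71.6, 74.3 and 72.5 RPKM in the sham libraries, with a log2 fold change of 0.66 ± 0.10 (adjusted p = 0.000652). These 3 were called with each library left out in turn, at adjusted p up to 0.00599, and with each scaling.

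The lid genes did not all rise. Of its 8 genes 4 were called higher, where 24.2% of all genes were. The fourth was Psmd14 (Rpn11), the enzyme that cuts ubiquitin chains off the substrate, with 66.1, 71.5 and 63.99 RPKM in the IRI libraries, against 48.9, 57.3 and 56.4 RPKM in the sham libraries (log2 0.35 ± 0.10, adjusted p = 0.0214), a call that held in 3 of the 6 fits that left out a library. Psmd14 is also listed under a second identifier, of 336 bases, which was at 0 reads in all 6 libraries. Psmd13, Psmd7 and Psmd6 had log2 values of 0.24 ± 0.09, 0.17 ± 0.09 and 0.13 ± 0.10 with no call. Psmd3 (Rpn3) went the other way: 50.6, 48.7 and 44.6 RPKM in the IRI libraries, against 57.8, 51.4 and 63.02 RPKM in the sham libraries. All IRI values of Psmd3 were below all sham values, with no call under TMM scaling (log2 -0.22 ± 0.11, adjusted p = 0.119), but it was called lower under 2 other scalings, upper quartile and library size alone (adjusted p = 0.0253 and 0.012). Psmd14, Psmd13, Psmd7, Psmd6 and Psmd3 were not among the genes picked by the naming rule and were chosen after their values were seen.

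The base, which holds the ring of ATPases and the docking subunits for ubiquitin, had smaller fold changes than these 3. Of its 9 genes 4 were called higher, where 24.2% of all genes were. The 2 large scaffold subunits rose: Psmd1 (Rpn2) had 38.4, 40.1 and 39.1 RPKM in the IRI libraries, against 32.5, 30.6 and 30.2 RPKM in the sham libraries (log2 0.37 ± 0.09, adjusted p = 0.00796). Psmd2 (Rpn1) had 44.5, 42.5 and 37.4 RPKM in the IRI libraries, against 33.6, 31.2 and 32.6 RPKM in the sham libraries (log2 0.39 ± 0.10, adjusted p = 0.0102). In both, the IRI and sham values did not overlap in RPKM. Both calls were lost without sham replicate 3 (adjusted p = 0.0607 for Psmd1 and 0.0576 for Psmd2) and with library size alone. Psmd4 (Rpn10), a ubiquitin receptor, and the ATPase Psmc2 were called close to the threshold (log2 0.29 ± 0.10, adjusted p = 0.0463, and log2 0.30 ± 0.11, adjusted p = 0.0467), and each was called in at most 2 of the 6 fits that left out a library. The other 5 ATPases (Psmc1, Psmc3, Psmc4, Psmc5 and Psmc6) had log2 values of 0.03 to 0.23 with no call. In the whole cap, 0 genes were called lower by edgeR's quasi-likelihood test, 0 with an unadjusted p below 0.05, and 0 in DESeq2 and in limma-voom. That edgeR test called 21.2% of all genes lower.

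Few core transcripts were called: 2 of 14 were higher and 0 lower, where 24.2% of all genes were called higher and 21.2% lower. Psmb4, a structural beta subunit, had 143, 147 and 150.2 RPKM in the IRI libraries, against 101, 125 and 111 RPKM in the sham libraries (log2 0.43 ± 0.10, adjusted p = 0.00924). Psma3 had 19.96, 23.4 and 23.9 RPKM in the IRI libraries, against 16.5, 19.4 and 18.8 RPKM in the sham libraries (log2 0.34 ± 0.11, adjusted p = 0.037). Both rose without overlap in RPKM between groups, and 3 core genes in all had every IRI value above every sham value, where 27.6% of all genes tested did. The call of Psmb4 was lost with library size alone and without sham replicate 3 (adjusted p = 0.0524), and that of Psma3 in 5 of the 6 fits that left out a library (adjusted p up to 0.126). The 3 constitutive cutting subunits had no call: Psmb5 stood at 80.3, 52.9 and 53.1 RPKM in the IRI libraries, against 54.5, 52.7 and 44.6 RPKM in the sham libraries (log2 0.33 ± 0.17, adjusted p = 0.145). IRI replicate 1 was the highest of these, and the other IRI values lay within the sham range. Psmb6 had 248, 266 and 281 RPKM in the IRI libraries, against 212, 278 and 242 RPKM in the sham libraries (log2 0.16 ± 0.12, adjusted p = 0.332). For Psmb7 the values were 124, 134 and 142 RPKM in the IRI libraries, against 115, 129.6 and 118 RPKM in the sham libraries (log2 0.18 ± 0.10, adjusted p = 0.167). The groups overlapped in all 3. The remaining core genes had log2 values of -0.24 (Psma4) to 0.20 (Psma7). No core gene was called lower by edgeR's quasi-likelihood test, DESeq2 or limma-voom, and 1, Psma4, had an unadjusted p under 0.05 (adjusted p = 0.0872) and was called lower in 4 alternatives (upper-quartile scaling, library size alone, the stricter filter and without sham replicate 1).

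Both measurable immunoproteasome transcripts rose. Psmb8 (LMP7), which replaces Psmb5, had 11.7, 12.6 and 9.61 RPKM in the IRI libraries, against 4.61, 5.13 and 5.84 RPKM in the sham libraries. Every IRI value exceeded every sham value, and the log2 fold change was 1.16 ± 0.15, a 2.23-fold rise with an adjusted p of 0.000386. Psmb10 (MECL-1), which replaces Psmb7, had 60.3, 58.5 and 39.3 RPKM in the IRI libraries, against 33.6, 32.8 and 34.4 RPKM in the sham libraries (log2 0.69 ± 0.16, adjusted p = 0.00675). IRI replicates 1 and 2 were close to each other, and IRI replicate 3 lay only slightly above the sham libraries. Set against its constitutive counterpart within each library, which does not depend on scaling, Psmb8 stood at 14.5%, 23.8% and 18.1% of the RPKM of Psmb5 in the IRI libraries and at 8.45%, 9.74% and 13.1% in the sham libraries. The log2 ratio was -0.87 ± 0.36 after IRI and -1.71 ± 0.32 in sham (SD of read-count ratios, n = 3), without overlap (difference 0.85, two-sided exact permutation p = 0.1, the smallest that 3 against 3 samples allow, and 0.2 adjusted over 2 ratios). Psmb10 stood at 48.7%, 43.5% and 27.6% of the RPKM of Psmb7 in the IRI libraries and at 29.2%, 25.3% and 29.1% in the sham libraries. IRI replicate 3 lay within the sham range (difference of the log2 ratios 0.48, two-sided exact permutation p = 0.3, adjusted 0.3).

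**Figure D3:**
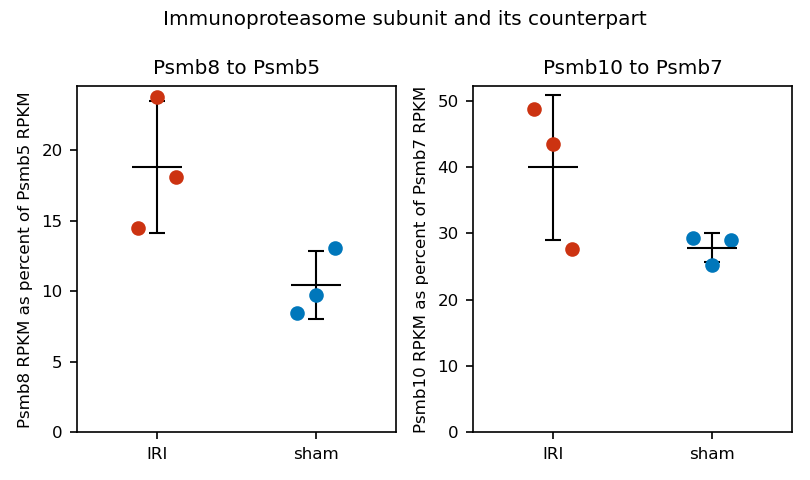
RPKM of Psmb8 as a percentage of Psmb5 (left panel) and of Psmb10 as a percentage of Psmb7 (right panel) in each IRI and sham library, with the mean and SD of 3 libraries. The Psmb8 ratio is higher in every IRI library than in any sham library, and the Psmb10 ratio of IRI replicate 3 lies within the sham range.

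Psmb9 (LMP2), which replaces Psmb6, had no usable value. The table lists it under 2 identifiers, with lengths of 3965 and 3976 bases, and both were at 0 reads in all 6 libraries. Of 52 symbols carried by 2 identifiers whose lengths differed by at most 5%, 36 (69.2%) were at 0 under both, against 33.5% of the 33853 symbols with 1 identifier. Read counters commonly set aside reads that fall in more than one annotated gene, and reads recorded as ambiguous made up 1.58% to 1.73% of each library. The 0 of Psmb9 can therefore not be read as a lack of its transcript, its cause was not tested, and no ratio to Psmb6 is given. In the RefSeq annotation (GRCm38.p6), Psmb9, Tap1, Psmb8 and Tap2 follow one another on chromosome 17.

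Immune cells carry the immunoproteasome at rest, so markers of these and of other cells are given beside Psmb8 and Psmb10. The 16 macrophage and dendritic cell markers summed to 127 to 187 RPKM after IRI and 40.1 to 167 RPKM in sham, and 4 of 11 tested rose, where 24.2% of all genes were called higher. Cd68, a lysosomal protein of macrophages, had 21.7, 36.6 and 18.8 RPKM in the IRI libraries, against 0.384, 0.828 and 0.681 RPKM in the sham libraries (log2 5.39 ± 0.37, adjusted p = 3.88e-05). Cd14, a receptor for bacterial lipid, had 25.01, 22.8 and 13.9 RPKM in the IRI libraries, against 6.79, 3.57 and 4.85 RPKM in the sham libraries (log2 2.05 ± 0.29, adjusted p = 0.000975), and Lyz2, a lysozyme, rose by 1.69 ± 0.42 on the log2 scale (adjusted p = 0.0103). These 3 log2 values exceeded that of Psmb8. Most of the summed level was Cd74, at 70.3, 84.4 and 146 RPKM in the IRI libraries and 25.1, 54.2 and 155 RPKM in the sham libraries, with no call (adjusted p = 0.688). The fourth, Ptprc, the common leukocyte antigen, was at 2.36, 2.24 and 2.64 RPKM in the IRI libraries and 1.49, 1.17 and 1.69 RPKM in the sham libraries (log2 0.77 ± 0.17, adjusted p = 0.00588). The remaining tested markers had no call: Csf1r (log2 0.29), C1qa (0.12), C1qb (0.07), C1qc (0.72), Fcer1g (0.74) and Tyrobp (1.02). Csf1r stood at 0.125 ± 0.0487 RPKM after IRI and 0.104 ± 0.0443 RPKM in sham. Emr1, Fcgr1, Itgam, Itgax and Cx3cr1 did not pass the filter. The 8 lymphocyte markers summed to 1.26 to 12.7 RPKM after IRI and 0.384 to 21.3 RPKM in sham, with the highest sums in replicate 3 of either group. Sham replicate 3 also had the highest Psmb8 of the sham libraries, whereas IRI replicate 3 had the lowest Psmb8 of the IRI libraries. Of the 4 neutrophil markers none passed the filter (sum 0 to 8.07 RPKM after IRI and 0 to 0.128 RPKM in sham), Ly6g had 0 reads after IRI and 1 in sham, and Cx3cr1 had 1 read in each group. The 5 endothelial markers summed to 0.345 to 1.003 RPKM after IRI and 0.0235 to 0.417 RPKM in sham. The part of these cells in the rise of Psmb8 and Psmb10 was not tested.

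Of the activators, Psme4 and Psme2 rose. Psme4 (PA200), a nuclear activator tied to histone turnover, had 7.45, 5.31 and 5.08 RPKM in the IRI libraries, against 3.64, 3.29 and 3.54 RPKM in the sham libraries, without overlap (log2 0.80 ± 0.15, adjusted p = 0.00275). Psme2 (PA28 beta), which forms a ring with Psme1 and is induced by interferon, had 69.4, 73.8 and 59.5 RPKM in the IRI libraries, against 43.7, 52.2 and 45.1 RPKM in the sham libraries, also without overlap (log2 0.56 ± 0.11, adjusted p = 0.00396). Both kept their call in the 14 alternatives. Its partner Psme1 (PA28 alpha) had 152, 164 and 143 RPKM in the IRI libraries, against 123, 144 and 140.4 RPKM in the sham libraries, with overlapping groups and no call (log2 0.21 ± 0.10, adjusted p = 0.14). A difference between the changes of Psme2 and Psme1 was not tested. Psme3 (PA28 gamma), which activates nuclear cores without ATP, had 77.4, 81.4 and 72.9 RPKM in the IRI libraries, against 65.4, 70.5 and 65.6 RPKM in the sham libraries (log2 0.24 ± 0.09, adjusted p = 0.0615). Psmf1 (PI31), a protein that binds the core and was first described as its inhibitor, had a log2 value of 0.23 ± 0.10 (adjusted p = 0.085). All IRI values were above all sham values for both, without a call. Psme2 has a pseudogene copy in the table, Psme2b-ps, so reads of the pair may be shared or lost and both values are uncertain. Psme2b-ps had 4.71, 5.01 and 3.51 RPKM in the IRI libraries and 2.24, 3.13 and 1.901 RPKM in the sham libraries, with a log2 value of 0.90 ± 0.28 (adjusted p = 0.0294) that lost its call in 4 of the 6 fits that left out a library and with library size alone.

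In contrast to the cap, the 4 Psmg chaperones, which build the core, were all called lower after IRI, where 21.2% of all genes were. Psmg1 (PAC1) and Psmg2 (PAC2) form a pair that seeds the ring of alpha subunits. Psmg1 had 16.1, 12.7 and 12.1 RPKM in the IRI libraries, against 29.1, 29.6 and 31.7 RPKM in the sham libraries, a 2.15-fold lower fitted level (log2 -1.11 ± 0.13, adjusted p = 0.000254). Psmg2 had 23.2, 20.3 and 19.4 RPKM in the IRI libraries, against 41.6, 49.1 and 45.6 RPKM in the sham libraries, a 2.11-fold lower fitted level (log2 -1.08 ± 0.11, adjusted p = 0.000125). In both genes the groups were well separated, and both calls held in the 14 alternatives.

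Psmg3 (PAC3) and Psmg4 (PAC4) form the second such pair, which helps to order the alpha ring. Psmg4 had 38.8, 41.1 and 43.4 RPKM in the IRI libraries, against 48.2, 63.8 and 61.4 RPKM in the sham libraries (log2 -0.45 ± 0.14, adjusted p = 0.025). Psmg3 had 38.6, 32.03 and 34.7 RPKM in the IRI libraries, against 40.6, 55.1 and 48.3 RPKM in the sham libraries (log2 -0.41 ± 0.14, adjusted p = 0.0355). Both fell without overlap between groups. Sham replicate 1 was the lowest sham library in each. Their calls were less firm: each was lost in 4 of the 6 fits that left out a library, at adjusted p up to 0.0911 for Psmg4 and 0.133 for Psmg3. Chaperones that build the base of the cap had no call. Psmd10 (gankyrin) had 50.8, 50.7 and 49.7 RPKM in the IRI libraries, against 54.4, 59.7 and 56.6 RPKM in the sham libraries (log2 -0.14 ± 0.09, adjusted p = 0.229), with all IRI values below all sham values, and was called lower under the upper-quartile and library-size scalings. Psmd9 and Psmd5 had log2 values of -0.12 ± 0.13 and 0.08 ± 0.12, and their groups overlapped. In this class, 0 genes were called higher by edgeR's quasi-likelihood test, 0 with an unadjusted p below 0.05, and 0 in DESeq2 and in limma-voom. That edgeR test called 24.2% of all genes higher. Pomp, the chaperone that joins the rings of the core and is not named Psm, was called higher: it had 414, 462 and 451 RPKM in the IRI libraries, against 327, 402 and 372 RPKM in the sham libraries (log2 0.31 ± 0.11, adjusted p = 0.0476). This call was lost under upper-quartile scaling (adjusted p = 0.197), by library size alone (0.375) and with a library left out (up to 0.148).

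**Figure D4:**
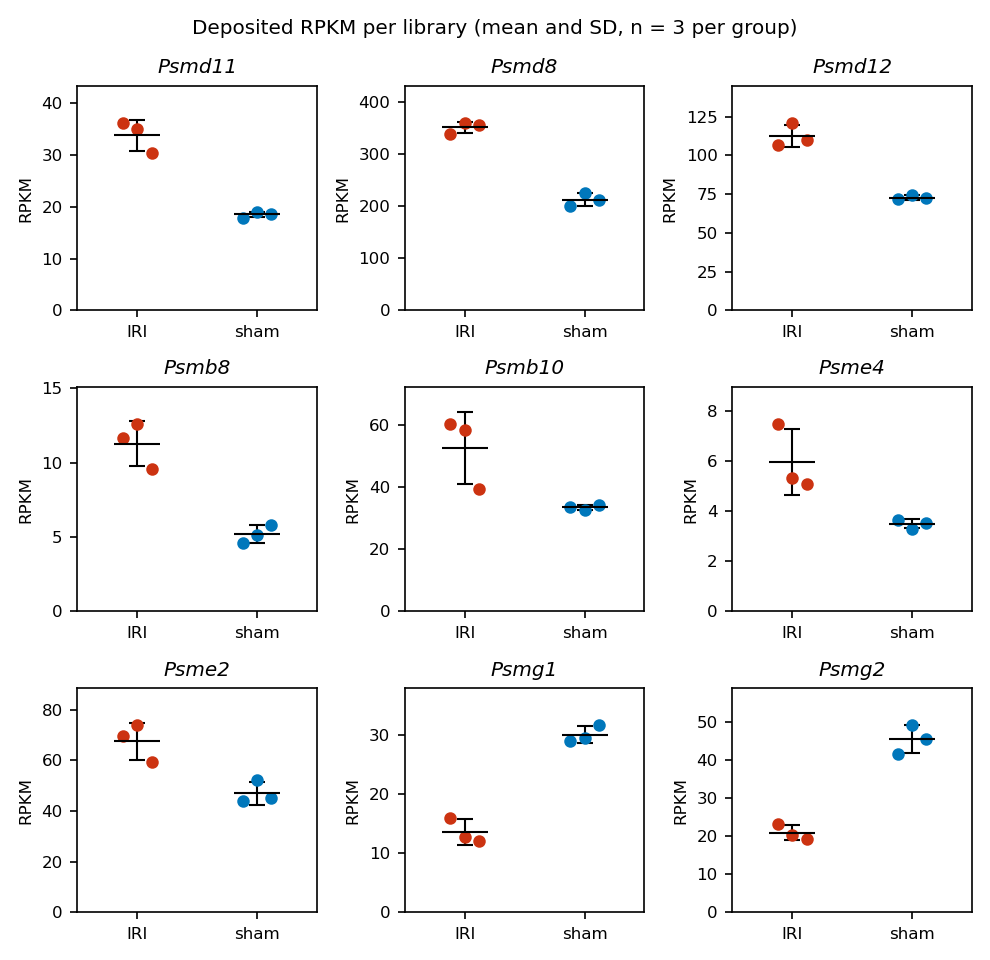
Deposited RPKM in each IRI and sham library (points) with the mean and SD of 3 libraries (bars) for the 9 members called under every setting run. The IRI libraries lie above the sham libraries for Psmd11, Psmd8, Psmd12, Psmb8, Psmb10, Psme4 and Psme2, and below them for Psmg1 and Psmg2.

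Levels within a library, which no scaling changes, showed the same separation for Psmd11, Psmd8 and Psmg1, but not for every gene called. The log2 level of Psmd11 relative to the geometric mean of the 14 core genes was -1.49, -1.58 and -1.83 in the IRI libraries and -2.32, -2.50 and -2.39 in the sham libraries. For Psmd8 it was 1.74, 1.78 and 1.72 in the IRI libraries and 1.16, 1.07 and 1.12 in the sham libraries. Psmg1 stood at -2.66, -3.04 and -3.16 in the IRI libraries and -1.62, -1.86 and -1.63 in the sham libraries, relative to the same core mean. Thus Psmd11 and Psmd8 gained on the core in each IRI library and Psmg1 lost ground. Psmb10 overlapped on this measure, at -0.75, -0.84 and -1.46 in the IRI libraries and -1.41, -1.71 and -1.51 in the sham libraries. Psmd1 and Psmd2, whose RPKM values did not overlap, also overlapped here. IRI replicate 3 was at -1.469 for Psmd1 and -1.54 for Psmd2, and sham replicate 1 at -1.464 and -1.41. Between group means, the difference in this relative level was 1.02 for Psmb8, 0.77 for Psmd11, 0.63 for Psmd8, -1.21 for Psmg2 and -1.25 for Psmg1.

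**Figure D5:**
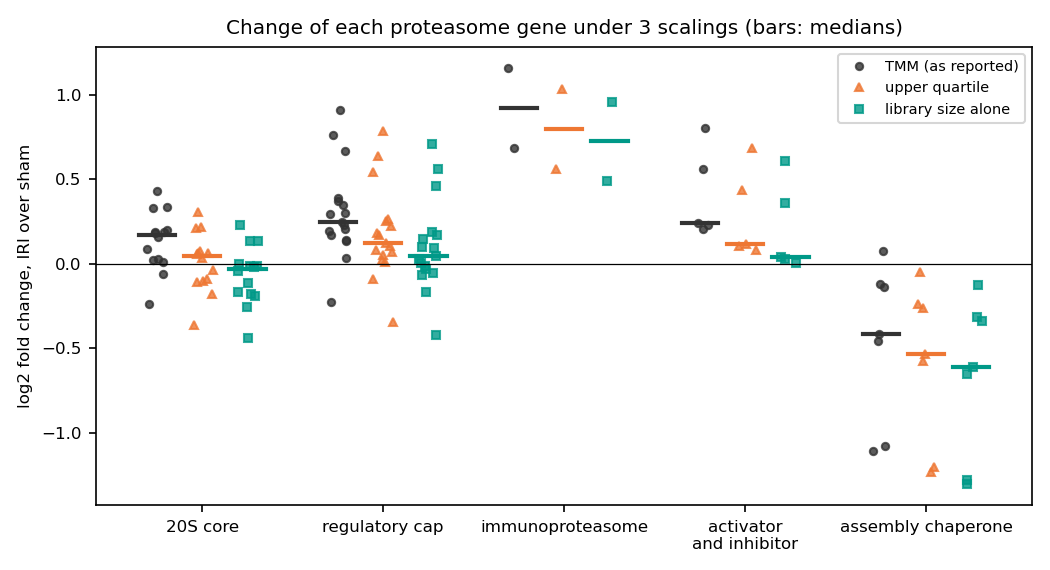
Log2 fold change of IRI over sham for each gene of 5 classes under TMM scaling (circles), upper-quartile scaling (triangles) and library size alone (squares), with class medians as bars. Library size alone brings the core median to -0.03 and the cap median to 0.05, while the immunoproteasome genes stay above 0 and the assembly chaperone median stays below 0.

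Of the 3 other members, Psmc3ip is named for binding the ATPase Psmc3 but acts in the pairing of chromosomes in meiosis, and Psma8 is a core subunit of the testis. Psmc3ip had 1.51, 1.56 and 1.197 RPKM in the IRI libraries, against 2.83, 2.31 and 3.64 RPKM in the sham libraries (log2 -1.001 ± 0.24, adjusted p = 0.00896), with all IRI values below all sham values. It did not pass the stricter filter and was called in the other 13 alternatives. Psma8 was barely detected, with 17, 13 and 12 reads in the IRI libraries and 1, 22 and 9 reads in the sham libraries, and no call (adjusted p = 0.672).

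Partners of the proteasome with other names were called higher more often than lower: 7 of 13 tested rose and 1 fell (median log2 0.31), where 24.2% of all genes were called higher and 21.2% lower. Library size alone gave 5 higher and 3 lower, against 17.3% and 31.2% of all genes. Zfand2a (AIRAP), a stress-induced protein that binds the cap, had 6.03, 7.89 and 7.56 RPKM in the IRI libraries, against 2.49, 2.66 and 2.68 RPKM in the sham libraries (log2 1.49 ± 0.14, adjusted p = 7.17e-05). Akirin2, which brings proteasomes into the nucleus, had 31.4, 37.1 and 31.7 RPKM in the IRI libraries, against 18.6, 20.3 and 20.03 RPKM in the sham libraries (log2 0.80 ± 0.11, adjusted p = 0.000465). Usp14, a ubiquitin-trimming enzyme of the cap, rose (log2 0.54 ± 0.10, adjusted p = 0.00241), whereas Uchl5, the second such enzyme, fell (log2 -0.45 ± 0.09, adjusted p = 0.0048). Uchl5 had 36.04, 40.5 and 36.2 RPKM in the IRI libraries, against 53.1, 54.2 and 50.2 RPKM in the sham libraries. Its docking site on the cap, Adrm1 (Rpn13), rose (log2 0.54 ± 0.13, adjusted p = 0.00861, but 0.055 with library size alone and up to 0.053 with a library left out), as did Txnl1 (log2 0.50 ± 0.10, adjusted p = 0.00392). Shfm1, a small cap subunit also called Sem1 and chosen after its values were seen, had 679.7 ± 49.2 RPKM after IRI and 661 ± 62.6 RPKM in sham with no call (adjusted p = 0.603).

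Ubiquitin genes were called higher with TMM scaling. Of the 6 genes for ubiquitin and its activation, 4 rose and 0 fell (also 0 with an unadjusted p below 0.05 in edgeR, 0 in DESeq2 and 0 in limma-voom), where 24.2% of all genes were called higher and 21.2% lower. Ubb, which encodes a chain of ubiquitin units, had 380.0, 553 and 609.8 RPKM in the IRI libraries, against 372, 375 and 364 RPKM in the sham libraries (log2 0.51 ± 0.17, adjusted p = 0.0349), and IRI replicate 1 lay close to sham. The activating enzyme Uba1 rose as well (log2 0.31 ± 0.10, adjusted p = 0.0266). Both calls were lost with upper-quartile scaling (adjusted p = 0.0885 for Ubb and 0.127 for Uba1), with library size alone (0.118 and 0.401) and with a library left out (up to 0.113 and 0.121). Upper-quartile scaling left 2 of the list higher (19.8% of all genes), and library size alone 1 (17.3% of all genes). Of 12 tested genes that carry substrates to the proteasome, 4 were higher (Ufd1l, Faf2, Nsfl1c and Nploc4, cofactors of the segregase Vcp) and 0 were lower in edgeR (0 with an unadjusted p below 0.05, 0 in DESeq2 and 0 in limma-voom), where 24.2% of all genes were called higher and 21.2% lower. Library size alone gave 0 higher and 2 lower, against 17.3% and 31.2% of all genes. Vcp had 9.54 ± 0.616 RPKM after IRI and 9.49 ± 0.725 RPKM in sham (log2 0.04 ± 0.10, adjusted p = 0.757).

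Several genes that act in the transcription of proteasome genes rose. Of 14 tested, 9 were higher and 1, Nfyc, was lower, where 24.2% of all genes were called higher and 21.2% lower. Library size alone gave 7 higher and 2 lower, against 17.3% and 31.2% of all genes. Nfe2l1 (NRF1), which restores proteasome transcripts when the proteasome is blocked, had 12.7, 13.8 and 13.4 RPKM in the IRI libraries, against 15.4, 14.4 and 16.6 RPKM in the sham libraries, with no call (log2 -0.18 ± 0.10, adjusted p = 0.162). All its IRI values lay below all sham values, and it was called lower under upper-quartile scaling (adjusted p = 0.0289) and by library size alone (0.00788). Ngly1, the enzyme that strips sugars from NFE2L1 on its way to the nucleus, had 29.7, 32.2 and 26.03 RPKM in the IRI libraries, against 17.4, 17.5 and 15.5 RPKM in the sham libraries (log2 0.84 ± 0.11, adjusted p = 0.00037). The related factor Nfe2l2 (NRF2) had 161, 163 and 170.3 RPKM in the IRI libraries, against 129, 121 and 109 RPKM in the sham libraries (log2 0.50 ± 0.10, adjusted p = 0.00443). Small Maf proteins pair with both factors on DNA, and all 3 rose. Maff had 8.19, 14.6 and 16.7 RPKM in the IRI libraries, against 0.884, 0.932 and 0.674 RPKM in the sham libraries (log2 4.01 ± 0.30, adjusted p = 3.93e-05), Mafk rose by 2.46 ± 0.22 and Mafg by 1.14 ± 0.13 on the log2 scale. Irf1, the factor through which interferon induces the immunoproteasome, had 21.6, 30.6 and 27.5 RPKM in the IRI libraries, against 4.84, 2.299 and 4.64 RPKM in the sham libraries (log2 2.80 ± 0.30, adjusted p = 0.000378).

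Of all genes tested, 24.2% were called higher and 21.2% lower. Genes that load the peptides made by the proteasome on class I molecules were called higher in 6 of 9 cases by edgeR and lower in 0 (0 with an unadjusted p below 0.05, 0 in DESeq2 and 0 in limma-voom). Higher were 2 under the upper-quartile scaling (19.8% of all genes) and 0 by library size alone (17.3% of all genes). The 2 were Erap1 (adjusted p = 0.0185) and Calr (0.0489) under that scaling. With a library left out, Erap1 kept its call (adjusted p up to 0.0354) and Calr lost it (up to 0.0567). Tap1, the neighbour of Psmb8 and one arm of the peptide transporter, had 3.32, 5.097 and 2.16 RPKM in the IRI libraries, against 1.31, 2.14 and 2.04 RPKM in the sham libraries (log2 0.98 ± 0.33, adjusted p = 0.0404), and IRI replicate 3 was near the sham values, as it was for Psmb10. Its call was lost under both other scalings (adjusted p = 0.0584 and 0.0646) and with a library left out (up to 0.125). B2m, the light chain of class I, had 858, 1272 and 986 RPKM in the IRI libraries, against 620.3, 814 and 726 RPKM in the sham libraries (log2 0.57 ± 0.17, adjusted p = 0.022), a call likewise lost under both other scalings (adjusted p = 0.0513 and 0.0571) and with a library left out (up to 0.079).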

How the data were processed

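Per the labels' protocols, RNA of sorted cells was sequenced on an Illumina HiSeq2500 after SMARTer amplification, which does not mark strand, in 3 IRI and 3 sham libraries, grouped by their titles. The authors deposited read counts per gene identifier, as whole numbers without normalization, and a table with RPKM, gene symbols and lengths, per the file headers. STAR, HTSeq, edgeR and the build mm9 appear in the submitters' processing notes, without versions or gene models. The deposited RPKM equals the count divided by length and by an effective library size, so it is not independent of the counts. Of all reads recorded, 49.1% to 50.7% were counted in genes and 39.9% to 42.4% had no unique alignment, which lowers genes with near-identical copies. Summary entries that are no gene were excluded.

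The count test used edgeR 4.0.16 in R 4.3.3 (filterByExpr, TMM, robust quasi-likelihood fit with group as the only term, Benjamini-Hochberg over 13881 genes). The biological coefficient of variation was 19.04%, and SEs were derived from the F statistic. DESeq2 1.42.0 and limma 3.58.1 (voom) were alternatives, with other scalings, filters, a replicate block and each library left out. The steps were tested on simulated counts. Libraries of a group differed beyond sampling noise (chi-square divided by its degrees of freedom, 16.9 to 46.3). Whether the pools of one group stem from separate experiments is not stated, so the p-values reflect the spread among these 6 pools, which may be technical. Per-sample values were given for the immunoproteasome genes and counterparts, Psmd11, up to 5 called members of each class with the smallest p, up to 2 with the highest RPKM, and members of related lists by the same order. Members and lists were chosen with earlier results of these data known. The 2 ratios that could be computed were adjusted together, where 3 had been planned. Values of some genes of the related lists are not reported here.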

Additional observations from a re-analysis of the deposited data

How the results depend on the processing

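Of 376 log2 fold changes of the 27 members named by rule under other settings, 332 kept direction and side of the threshold, 29 lost and 2 gained a call, and 13 small uncalled values changed sign. With library size alone, 7 members were higher and 8 lower, against 15 and 5 as reported, where 17.3% of all genes were higher and 31.2% lower; the cap had 3 higher and 1 lower, and the core 0 higher and 1 lower. Upper-quartile scaling gave 11 higher and 8 lower members (of all genes 19.8% and 27.3%), 5 and 1 in the cap and 1 and 1 in the core. The core had 1 higher without a filter, and 1 higher and 1 lower with the stricter filter (10 CPM in 3 samples). Of all genes, 3265 were higher and 3112 lower without a filter, and 2378 and 2270 with the stricter filter. Library size alone and upper-quartile scaling both shift all fold changes downward together. With each library left out in turn, 7 to 13 members were higher and 3 to 6 lower, 0 to 2 core genes were higher and 0 to 1 lower, 3 to 7 cap genes were higher and 0 to 0 lower, 2 to 4 assembly chaperones were lower, and of all genes 2566 to 3172 were higher and 2295 to 2734 lower. The 2 immunoproteasome genes and 2 activators were called higher each time. The difference in log2 ratio was 0.66 to 1.02 for Psmb8 to Psmb5 and 0.32 to 0.73 for Psmb10 to Psmb7. No ratio of Psmb9 to Psmb6 could be computed, since Psmb9 is listed at 0.

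Values that changed sign were uncalled: Psmb1 (0.02 as reported) was -0.10 with upper-quartile scaling, -0.18 with library size alone, -0.018 without a filter, -0.025 with the stricter filter and -0.099 to -0.0065 in 3 of the fits that left out a library (-0.0093 without IRI replicate 3, and up to 0.087 in the others). With library size alone, Psmb2 was -0.015, Psmb6 -0.043, Psmb7 -0.021 and Psmd5 -0.12, and Psmd5 was -0.046 with upper-quartile scaling and -0.026 to 0.17 with a library left out, below 0 without sham replicate 3. Apart from this shift with scaling, the cause was not tested.

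Replicate numbers are shared between groups, but the labels do not say that a number marks a shared experiment. Deviations from the group means correlated by 0.0952 to 0.182 between same-numbered libraries and by -0.172 to 0.0297 between others, and each library correlated best with its own number, which is a hint from the data and not a paired design. With a replicate block, 15 members were higher and 4 lower, 8 of them higher in the cap, 2 in the core and 3 lower among assembly chaperones, and of all genes 3368 were higher and 3095 lower. Depth limits Psma8, Psme2b-ps and Psmc3ip most.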
